A study of Mus musculus with 6 samples.

Results

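Matrix metalloproteinases, their tissue inhibitors and the related protease Tll1 were followed in mouse epidermal keratinocytes labelled as lacking the transcription factors Ovol1 and Ovol2, as lacking Ovol1, or as control. The set holds 10 genes: the metalloproteinases Mmp2, Mmp3, Mmp9, Mmp10, Mmp13 and Mmp14, the inhibitors Timp1, Timp2 and Timp3, and Tll1. Each was read from the probe set annotated to its symbol alone, and all 10 were measured among 19938 named genes. Levels are given as log2(intensity + 16), and differences of dim genes come out too small on it.

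The cells were keratinocytes from C57BL/6 mouse skin at E18.5, shortly before birth, grown for 2 to 5 days in a culture labelled as without calcium. There were 6 one-colour Affymetrix arrays in 3 groups of 2, each array with RNA pooled from 2 mice, and all samples carry a female label. The Ovol1/2 DKO arrays came from Ovol2flox/-;K14-Cre mice that were also Ovol1-/-, the labelled Ovol1 KO arrays from Ovol1-/- mice, and the control arrays from Ovol2flox/+; Ovol1+/- or Ovol2flox/+;K14-Cre mice. Loss of Ovol1 is therefore shared by both knockout labels, K14-Cre acts only in keratin 14 expressing cells, and controls may carry a floxed Ovol2 allele with the same Cre. By the labels the 2 arrays of a group are biological replicates, and p-values measure the spread between them. Unless a replicate block is named, that spread holds differences between pools of mice and any shift that goes with the replicate number.

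Matrix metalloproteinases are zinc enzymes, secreted or held at the cell surface, that cut collagens, laminins and other matrix proteins. They are made as inactive precursors, and the Timp proteins bind the active enzymes and block them. In skin the family is best known from wounds, where keratinocytes at the moving edge and fibroblasts below them make different members.

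Facts of the arrays that bear on the results are few. Ovol1 stood at 5.96 and 6.22 in Ovol1/2 DKO, at 10.75 and 9.80 in the labelled Ovol1 KO arrays, and at 9.64 and 9.95 in control. The signal of the labelled Ovol1 KO arrays thus went against their label, which holds for each direction drawn from them. For Ovol2, the Ovol1/2 DKO values of 7.63 and 7.50 lay within the control values of 8.37 and 6.97, and the positions of the probes against the deleted parts are not known here. Xist, which coats the silenced X chromosome in female cells, was at 4.54 in replicate 1 labelled Ovol1 KO and 4.43 in control replicate 1, against 10.99 to 11.43 on the other 4 arrays. The basal keratin Krt5 lay between 13.39 and 13.55 on all 6 arrays, and none of 8 keratinocyte markers was near background. Near background means at or under 6.20, the highest array median of the probe sets without a gene name.

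Timp1 and Tll1 rose in Ovol1/2 DKO keratinocytes, by 8.13-fold and 8.68-fold against control. These were 2 of the 10 genes, and none fell, where 0.622% of all named genes rose and 1.4% fell, 2.02% in all. Mmp2 was 4.99-fold higher, but did not pass in the fit without a replicate block. Both Ovol1/2 DKO arrays lay above both control arrays in Timp1, Tll1 and Mmp2, 3 of the 10 genes, as for 21.1% of all named genes. The other 5 metalloproteinases, Timp2 and Timp3 overlapped between the groups. The median log2 difference was 0.31 over the 10 genes and 0.03 over all named genes. Differences came from a limma fit over all 6 arrays, and an adjusted p under 0.05 over all named genes passed.

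**Figure D1:**
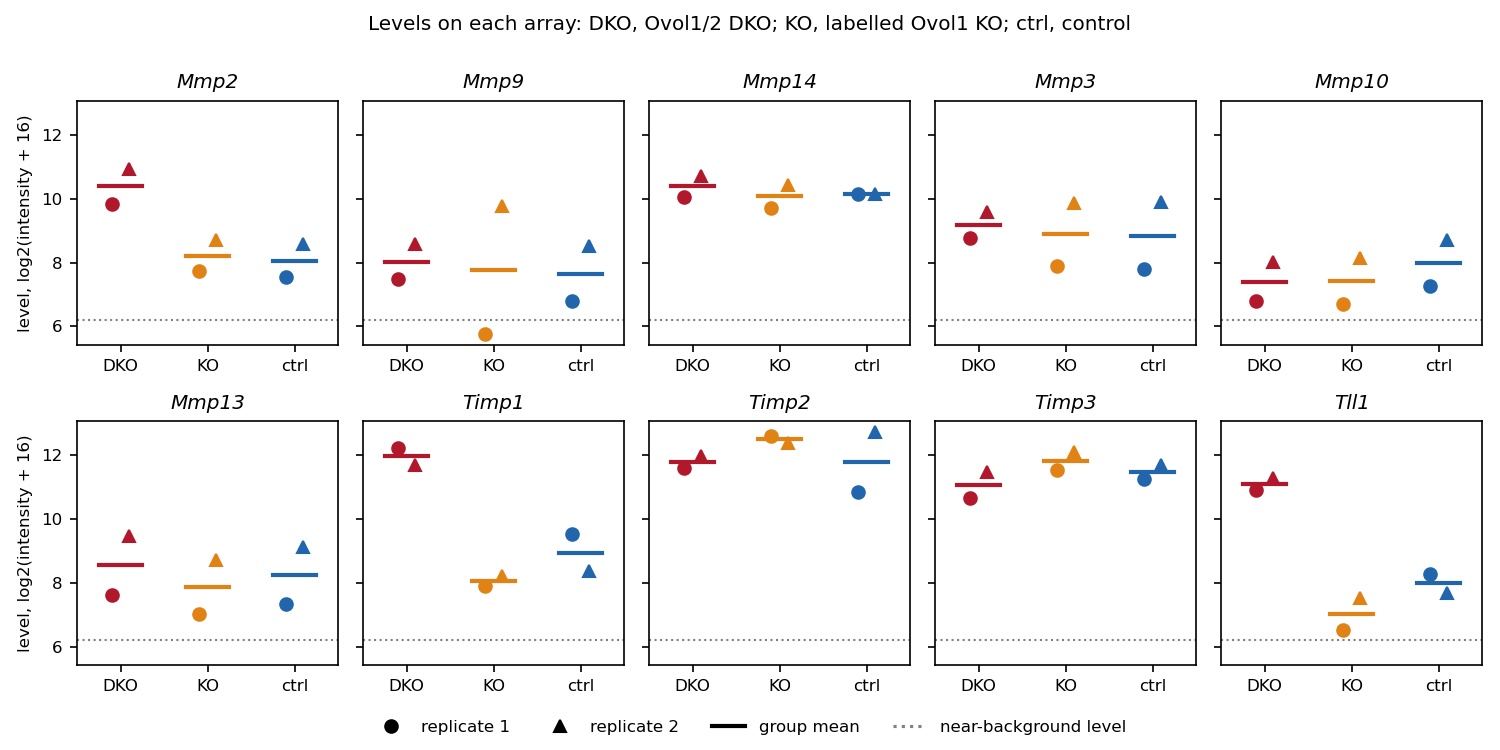
Level of each gene on each array as log2(intensity + 16), with Ovol1/2 DKO (DKO), labelled Ovol1 KO (KO) and control (ctrl) from left to right; circles are replicate 1, triangles replicate 2, bars the group means, and the dotted line is the near-background level of 6.20. The Timp1 and Tll1 values of Ovol1/2 DKO, between 10.91 and 12.22, lie above every value of the other groups for the same gene, while the triangles of all 6 metalloproteinases lie above the circles of the same group.

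Timp1 encodes a secreted inhibitor that blocks most soluble matrix metalloproteinases. It read 12.22 and 11.70 in Ovol1/2 DKO, 7.91 and 8.22 in the labelled Ovol1 KO arrays, and 9.52 and 8.36 in control. Both Ovol1/2 DKO arrays lay above all 4 others, and the control arrays lay 1.16 apart. Timp1 averaged 11.96 ± 0.37 in Ovol1/2 DKO and 8.94 ± 0.82 in control (SD, n = 2 each), a log2 difference of 3.02 (SE 0.40, 95% interval 2.07 to 3.98, limma adjusted p = 0.0197). Within replicate numbers the difference was 2.70 for replicate 1 and 3.34 for replicate 2. Timp1 lies on the X chromosome, and without both arrays that lack Xist signal the difference was 3.60. Both are replicate 1, so this sets both Ovol1/2 DKO arrays against control replicate 2 alone. Over all probe sets, and with an offset of 64, Timp1 did not pass. The call was lost without either Ovol1/2 DKO array (limma adjusted p = 0.102 without replicate 1 and 0.0775 without replicate 2), where the size was 2.77 and 3.28.

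Tll1 encodes tolloid-like 1, a secreted protease of the astacin family, close to Bmp1, that trims procollagen ends and cleaves the BMP antagonist chordin. It read 10.91 and 11.29 in Ovol1/2 DKO, 6.53 and 7.51 in the labelled Ovol1 KO arrays, and 8.29 and 7.68 in control. The Ovol1/2 DKO values stood at least 2.62 above every other array. The means were 11.10 ± 0.27 in Ovol1/2 DKO and 7.98 ± 0.43 in control (SD, n = 2 each), and the log2 difference was 3.12 (SE 0.38, 95% interval 2.21 to 4.03, limma adjusted p = 0.0159). Replicate 1 gave 2.62 and replicate 2 gave 3.61. Over all probe sets, where p-values are adjusted over more tests, Tll1 did not pass. The call was lost without Ovol1/2 DKO replicate 1 (limma adjusted p = 0.0616), without Ovol1/2 DKO replicate 2 (0.101) and without control replicate 2 (0.0593).

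The bases before the start sites of Timp1 and Tll1, the members that rose, are given here as RefSeq has them for GRCm38.p6, as 250 bases ending just before the start. Capitals mark the Ets motif AGGAAG, the one motif of 5 searched that was found in them.
Timp1 (chrX:20869916-20870165, plus strand): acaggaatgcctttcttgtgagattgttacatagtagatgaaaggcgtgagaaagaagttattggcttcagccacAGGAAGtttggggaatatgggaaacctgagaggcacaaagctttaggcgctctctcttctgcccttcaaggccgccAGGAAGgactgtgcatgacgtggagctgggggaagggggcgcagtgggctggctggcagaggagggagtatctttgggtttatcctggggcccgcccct
Tll1 (chr8:64206009-64206258, minus strand): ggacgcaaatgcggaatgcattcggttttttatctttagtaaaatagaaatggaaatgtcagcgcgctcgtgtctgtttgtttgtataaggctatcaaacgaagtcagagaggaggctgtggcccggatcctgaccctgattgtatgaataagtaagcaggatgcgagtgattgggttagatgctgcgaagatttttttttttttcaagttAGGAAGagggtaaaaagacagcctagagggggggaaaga

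Searched on both strands were the AP-1 motif TGANTCA, the E-box CAGGTG, the Ovo motif CCGTTA, the Ets motif AGGAAG and TATAAA. Promoter sequences were found for 8 of the 10 members, all but Mmp2 and Mmp9. The Ets motif was in 6 of the 8 windows, and in 29.5% of the 32851 promoter windows of the same length. The Ovo motif was in 0 of the 8 windows and in 2.18% of all windows. The E-box was found in the windows of Timp2 and Timp3 and in 17.2% of all. A match is a description of the letters and not a binding site, and a motif that was not found says only that its letters are not in this window.

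Mmp2, gelatinase A, cuts basement membrane collagen and gelatin. It read 9.83 and 10.94 in Ovol1/2 DKO, 7.72 and 8.69 in the labelled Ovol1 KO arrays, and 7.56 and 8.57 in control. Both Ovol1/2 DKO arrays lay above the other 4, and replicate 2 lay about 1 unit above replicate 1 in every group, by 1.11, 0.97 and 1.01. Its means were 10.38 ± 0.79 in Ovol1/2 DKO and 8.07 ± 0.71 in control (SD, n = 2 each). The log2 difference was 2.32 (SE 0.52, 95% interval 1.07 to 3.57) and did not pass (limma adjusted p = 0.103). Within replicate numbers it was 2.26 for replicate 1 and 2.37 for replicate 2, and with the replicate block it passed (2.32, SE 0.15, limma adjusted p = 0.00568). Without both arrays that lack Xist signal the difference was 1.82. Both are replicate 1, so this sets both Ovol1/2 DKO arrays against control replicate 2 alone.

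Mmp14, membrane type 1 matrix metalloproteinase, sits in the cell membrane and activates the Mmp2 precursor together with Timp2. It read 10.05 and 10.72 in Ovol1/2 DKO, 9.72 and 10.44 in the labelled Ovol1 KO arrays, and 10.14 and 10.15 in control. The groups overlapped, and the log2 difference of Ovol1/2 DKO from control was 0.24 (SE 0.33, 95% interval -0.54 to 1.02). Timp2, which inhibits metalloproteinases and also bridges Mmp14 to the Mmp2 precursor, read 11.59 and 11.96 in Ovol1/2 DKO, 12.61 and 12.39 in the labelled Ovol1 KO arrays, and 10.86 and 12.71 in control. Control replicate 1 was the lowest of the 6 arrays and control replicate 2 the highest, so the difference of -0.013 from control (SE 0.55, 95% interval -1.33 to 1.31) rests on 2 arrays that lay 1.85 apart. It was 0.91 without control replicate 2 and -0.94 without control replicate 1, and neither passed.

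Timp3, an inhibitor that binds to the matrix and also blocks several Adam proteases, read 10.67 and 11.48 in Ovol1/2 DKO, 11.53 and 12.09 in the labelled Ovol1 KO arrays, and 11.25 and 11.71 in control. The log2 difference of Ovol1/2 DKO from control was -0.40 (SE 0.35, 95% interval -1.24 to 0.43, limma adjusted p = 0.955). Mmp9, gelatinase B, read 7.48 and 8.59 in Ovol1/2 DKO, 5.78 and 9.79 in the labelled Ovol1 KO arrays, and 6.78 and 8.51 in control. The 2 labelled Ovol1 KO arrays were the lowest, near background, and the highest of the 6, 4.01 apart. Ovol1/2 DKO differed from control by 0.39 (SE 1.25, 95% interval -2.59 to 3.36), so changes of several fold in either direction were not detectable with these arrays.

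**Figure D2:**
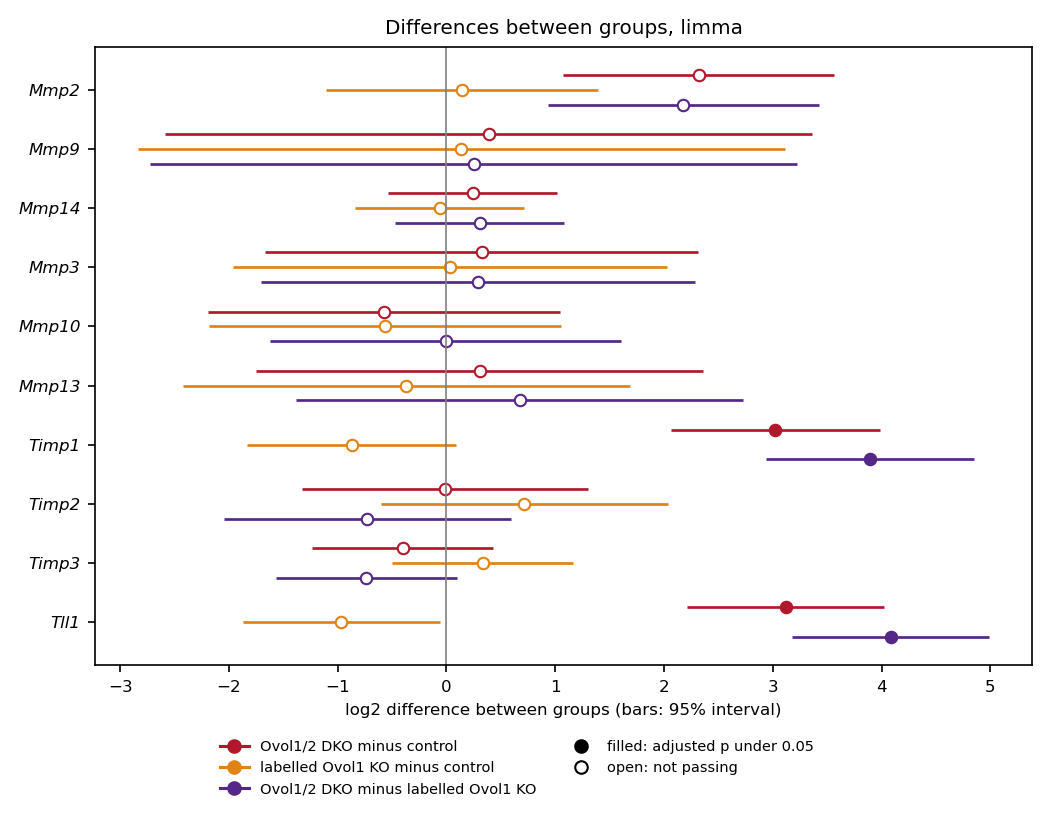
Log2 difference between groups for each gene from the limma fit, with 95% intervals; red is Ovol1/2 DKO minus control, orange labelled Ovol1 KO minus control, purple Ovol1/2 DKO minus labelled Ovol1 KO, and filled points had an adjusted p under 0.05. The filled points are those of Timp1 and Tll1, between 3.02 and 4.08, and the widest intervals are those of Mmp9, from -2.59 to 3.36 against control.

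The stromelysins Mmp3 and Mmp10, which cut proteoglycans, laminin and other enzyme precursors, and the collagenase Mmp13, which opens fibrillar collagen, lie in one cluster of Mmp genes on chromosome 9. Mmp13 read 7.61 and 9.48 in Ovol1/2 DKO, 7.04 and 8.70 in the labelled Ovol1 KO arrays, and 7.35 and 9.13 in control. Mmp10 read 6.80 and 8.02 in Ovol1/2 DKO, 6.70 and 8.13 in the labelled Ovol1 KO arrays, and 7.25 and 8.71 in control. In both genes the arrays split by replicate number and not by genotype: every replicate 2 array lay above every replicate 1 array. Mmp3 read 8.76 and 9.58 in Ovol1/2 DKO, 7.91 and 9.86 in the labelled Ovol1 KO arrays, and 7.80 and 9.90 in control. It showed the same split, and the Ovol1/2 DKO arrays lay 0.81 apart, against 1.95 and 2.10 for the other groups.

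Ovol1/2 DKO differed from control by 0.31 for Mmp13 (SE 0.86), by -0.57 for Mmp10 (SE 0.68) and by 0.32 for Mmp3 (SE 0.84), none passing. Within replicate numbers, Mmp3 was 0.97 higher in Ovol1/2 DKO for replicate 1 and -0.32 for replicate 2, Mmp13 differed by 0.26 and 0.35, and Mmp10 by -0.46 and -0.69. With the replicate block the adjusted p was 0.772 for Mmp3, 0.480 for Mmp13 and 0.173 for Mmp10. The plot of differences between arrays of a group shows the split.

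**Figure D3:**
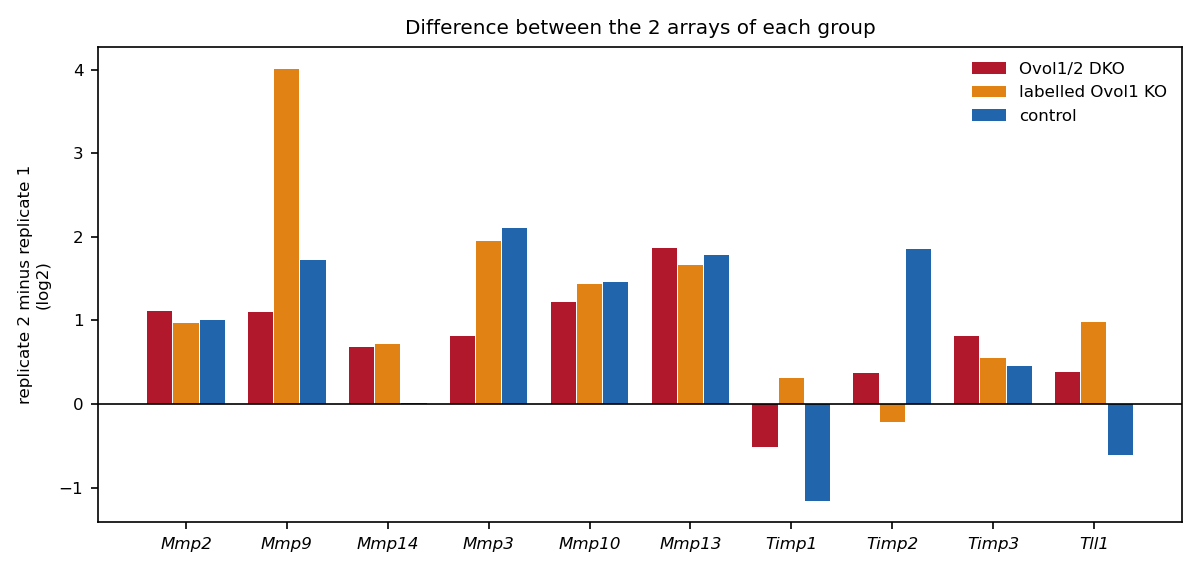
Level of replicate 2 minus level of replicate 1 within each group (log2), for Ovol1/2 DKO (red), labelled Ovol1 KO (orange) and control (blue). All bars of the 6 metalloproteinases are above 0, from 0.014 for Mmp14 in control to 4.01 for Mmp9 in the labelled Ovol1 KO arrays, while Timp1, Timp2 and Tll1 have bars on both sides.

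Replicate 2 was above replicate 1 in all 3 groups for 6 of 6 metalloproteinases and for Timp3, which makes 7 of the 10 genes against 19.9% of all named genes. For Mmp3, Mmp9, Mmp10, Mmp13 and Mmp14 all replicate 2 arrays lay above all replicate 1 arrays, as for 11.3% of all named genes. The mean replicate difference was 2.28 for Mmp9, 1.77 for Mmp13, 1.62 for Mmp3, 1.37 for Mmp10, 1.03 for Mmp2 and 0.47 for Mmp14, and the median over all named genes was -0.04. No label ties a replicate number to a day, litter or batch. Of 16 other Mmp genes, 9 were higher in replicate 2 of all 3 groups. Of 12 fibroblast markers, 9 were also higher in replicate 2 of all 3 groups, with a median difference of 0.61, and the mean level of the list was 7.29 and 7.89 in Ovol1/2 DKO, 6.95 and 7.56 in the labelled Ovol1 KO arrays, and 6.86 and 7.49 in control. Of 8 keratinocyte markers, 1 was higher in replicate 2 of all 3 groups and 2 were lower. The part of other cells in the split was not tested.

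The last 100 bases before the RefSeq start sites of Mmp3, Mmp10 and Mmp13 (GRCm38.p6) are shown because these 3 genes of the chromosome 9 cluster split by replicate number, as Mmp9 and Mmp14, outside the cluster, also did. Capitals mark the AP-1 motif TGANTCA, the motif TATAAA and, in Mmp13, the Ets motif AGGAAG.
Mmp13 (chr9:7272414-7272513, plus strand): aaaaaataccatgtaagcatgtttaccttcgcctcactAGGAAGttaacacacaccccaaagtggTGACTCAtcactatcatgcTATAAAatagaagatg
Mmp3 (chr9:7445722-7445821, plus strand): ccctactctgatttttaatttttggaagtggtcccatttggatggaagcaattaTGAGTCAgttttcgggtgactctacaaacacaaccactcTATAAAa
Mmp10 (chr9:7502242-7502341, plus strand): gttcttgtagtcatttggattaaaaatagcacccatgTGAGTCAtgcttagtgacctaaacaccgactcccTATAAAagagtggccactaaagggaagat

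The AP-1 motif began 35 bases before the start in Mmp13, 46 bases in Mmp3 and 63 bases in Mmp10, followed in each by TATAAA. Among the 8 members with a promoter sequence, AP-1 and TATAAA were found in these 3 alone. In all promoter windows the AP-1 motif was found in 6.75%, TATAAA in 12.4% and both in 1.21%. AP-1 is the dimer of Fos and Jun proteins, long studied at metalloproteinase promoters. Of 12 AP-1 and Ets factor genes, 2 were higher and 2 lower in replicate 2 of all 3 groups. Among all 19938 named genes, 3968 (19.9%) were higher and 5595 lower, so the 2 higher ones were near that share and the 2 lower ones below theirs. The higher ones were Junb and Jund, and in neither did every replicate 2 array lie above every replicate 1 array. Junb read 9.05 and 9.31 in Ovol1/2 DKO, 10.04 and 10.42 in the labelled Ovol1 KO arrays, and 9.87 and 10.55 in control. Jund read 10.38 and 10.84 in Ovol1/2 DKO, 11.25 and 11.42 in the labelled Ovol1 KO arrays, and 10.60 and 11.42 in control. Unlike these, Jun and Fos were lower in replicate 2 of every group. Jun read 10.93 and 10.87 in Ovol1/2 DKO, 10.48 and 10.39 in the labelled Ovol1 KO arrays, and 11.07 and 10.58 in control. Fos read 9.27 and 8.17 in Ovol1/2 DKO, 9.21 and 8.42 in the labelled Ovol1 KO arrays, and 9.03 and 8.71 in control. The Fos-related gene Fosl1 read 10.94 and 9.82 in Ovol1/2 DKO, 9.80 and 10.49 in the labelled Ovol1 KO arrays, and 10.84 and 10.87 in control, and did not split by replicate number. The part of AP-1 factors in the split was not tested.

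The cluster on chromosome 9 holds 10 Mmp genes in a row, in the order Mmp13, Mmp12, Mmp1b, Mmp3, Mmp1a, Mmp10, Mmp8, Mmp27, Mmp20 and Mmp7 in the RefSeq table. Mmp1a, Mmp1b and Mmp8 were near background on all 6 arrays, between 4.68 and 5.63. Mmp12, the macrophage elastase, read 7.55 and 7.90 in Ovol1/2 DKO, 5.71 and 6.74 in the labelled Ovol1 KO arrays, and 7.08 and 6.86 in control, so it was higher in replicate 2 in 2 of the 3 groups, as were Mmp27 and Mmp7. The other 7 genes of the cluster were higher in replicate 2 of all 3 groups, against 19.9% of all named genes. These 7 include the near-background Mmp1a, Mmp1b and Mmp8, whose differences in Ovol1/2 DKO were 0.044, 0.059 and 0.39. Also among the 7, Mmp20, the enamel protease, was close to background. It read 5.94 and 5.98 in Ovol1/2 DKO, 6.03 and 6.52 in the labelled Ovol1 KO arrays, and 5.85 and 6.31 in control.

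In the second comparison, labelled Ovol1 KO against control, none of the 10 genes passed limma, nor did any of all named genes (0%), and the adjusted p was 0.999 for each of the 10. At an unadjusted p under 0.05 there were 1 of the 10 genes, Tll1, and 153 of 19938 named genes. Tll1 averaged 7.02 ± 0.70 in the labelled Ovol1 KO arrays and 7.98 ± 0.43 in control (SD, n = 2 each), a log2 difference of -0.97 (SE 0.38, 95% interval -1.87 to -0.057). Timp1 was at -0.87 (SE 0.40, 95% interval -1.83 to 0.086). For both, the labelled Ovol1 KO arrays lay below both control arrays, as for 10.3% of all named genes. Within replicate numbers Tll1 differed by -1.76 and -0.17, and Timp1 by -1.61 and -0.14, so replicate 1, whose arrays in these 2 groups lack Xist signal, carried most of both differences. The other differences ran from -0.56 for Mmp10 to 0.72 for Timp2.

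The third comparison, Ovol1/2 DKO against labelled Ovol1 KO, shares the Ovol1/2 DKO arrays with the first and is no independent repeat of it. Timp1 was 14.9-fold higher (log2 difference 3.90, SE 0.40, limma adjusted p = 0.00831) and Tll1 17.0-fold higher (4.08, SE 0.38, limma adjusted p = 0.00654). These were again 2 of the 10 genes, where 1.24% of all named genes rose and 1.91% fell, 3.15% in all. Tll1 passed in all 16 alternative settings, and Timp1 lost the call only without replicate 1 labelled Ovol1 KO (3.74, limma adjusted p = 0.0599). Mmp2 was 2.18 higher (SE 0.52) and did not pass (limma adjusted p = 0.0962), but did with the replicate block (limma adjusted p = 0.00579), which also moved the count over all named genes to 1022, against 628 without it. Timp2 was at -0.73 (SE 0.55) and Timp3 at -0.74 (SE 0.35), with both Ovol1/2 DKO arrays below both labelled Ovol1 KO arrays in each, and neither passed. With Timp1, Tll1 and Mmp2 above, 5 of the 10 genes did not overlap between these groups, as for 43.1% of all named genes.

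Cells of the dermis also make Timp1 and Mmp2, so markers of other cells were read beside them. The summed intensity of 12 fibroblast markers was 4133.5 and 5346.9 in Ovol1/2 DKO, 2607.1 and 3049 in the labelled Ovol1 KO arrays, and 2509.7 and 2983.5 in control. Fbln1 was the brightest of them on every array, so the sum leans on it. Of these 12, Thy1 rose against control (log2 difference 1.67, SE 0.22, limma adjusted p = 0.0187) and 11 did not pass. Both Ovol1/2 DKO arrays also lay above the other 4 in Fbln1 and Postn. With Thy1, 3 of the 12 lay above control on both arrays, as for 21.1% of all named genes. The other markers overlapped with control, with log2 differences from -0.66 for Pdgfra to 0.42 for Col1a1, and 0.25 for Col3a1. The median difference from control was 0.071 over the 12 markers and 0.033 over all named genes. Fbln1, the matrix protein fibulin 1, read 11.17 and 11.38 in Ovol1/2 DKO, 10.55 and 10.17 in the labelled Ovol1 KO arrays, and 10.52 and 10.09 in control, a difference from control of 0.97 (limma adjusted p = 0.150). Postn, the matrix protein periostin, read 6.62 and 8.65 in Ovol1/2 DKO, 5.04 and 6.15 in the labelled Ovol1 KO arrays, and 5.18 and 5.65 in control, a difference from control of 2.22 (limma adjusted p = 0.236). Dcn, the proteoglycan decorin, read 7.35 and 8.30 in Ovol1/2 DKO, 7.42 and 8.04 in the labelled Ovol1 KO arrays, and 7.25 and 8.40 in control. Lum, another dermal proteoglycan, was near background on all 6 arrays. The summed intensity of 8 keratinocyte markers was also higher, at 41025 and 42399 in Ovol1/2 DKO, 30812 and 33220 in the labelled Ovol1 KO arrays, and 36035 and 34574 in control. The part of other cells in the rise of Timp1 and Tll1 was not tested, and in cultures measured in bulk fewer cells of a type and less RNA per cell cannot be told apart.

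Leukocytes are a known source of Mmp9. Of 12 leukocyte markers, Adgre1, Tyrobp and Mpo were near background on all 6 arrays, and Ptprc, the pan-leukocyte surface phosphatase, lay between 5.84 and 6.29. Other genes of the list were brighter or varied more. Cd68, a lysosomal protein of macrophages, read 10.15 and 11.22 in Ovol1/2 DKO, 12.12 and 10.81 in the labelled Ovol1 KO arrays, and 10.71 and 11.25 in control. S100a8, a calcium-binding protein of neutrophils that stressed keratinocytes also make, read 6.41 and 5.71 in Ovol1/2 DKO, 9.52 and 8.37 in the labelled Ovol1 KO arrays, and 6.96 and 10.58 in control. Its partner S100a9 reached 9.88, and the myeloid lysozyme Lyz2 reached 8.18, both in control replicate 2. The summed intensity of the list was 1794.3 and 3073.6 in Ovol1/2 DKO, 6462.9 and 3019.9 in the labelled Ovol1 KO arrays, and 2422.2 and 5820 in control. Cd68 was the brightest gene of the list on every array, so the sum leans on it and is no measure of leukocyte content. The part of leukocytes in the spread of Mmp9 was not tested. Of 6 mast cell markers 4 and of 8 endothelial markers 3 were near background on all 6 arrays, as were 1 of 7 melanocyte and 2 of 7 skeletal muscle markers. Both Ovol1/2 DKO arrays lay below both control arrays in 4 melanocyte, 2 endothelial and 1 skeletal muscle markers, against 3608 of 19938 named genes. They lay above in 2 mast cell, 2 endothelial and 2 skeletal muscle markers, against 4216 named genes. None on these lists passed against control. The endothelial marker Pecam1 rose against the labelled Ovol1 KO arrays (1.28, limma adjusted p = 0.0204).

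Patterns like those of the members were sought for the 3 members with the widest range. The measure was the mean absolute difference between levels centred on each gene's own mean over the 6 arrays. Only genes with a mean level at or above the median of all named genes, 7.56, were searched, so dimmer genes could not be found. For Tll1, which spanned 4.77, the nearest genes were Fstl1 (0.23), Vim (0.23) and Aff3 (0.24). For Timp1, which spanned 4.31, they were Aff3 (0.21), Peg10 (0.23) and Iqgap2 (0.29). For Mmp9, which spanned 4.01, the nearest were Gm10575 (0.41), Mmp3 (0.45) and Gm10874 (0.51). Aff3 was thus near to both members that rose, and another member was among the nearest genes of Mmp9.

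Related proteases and inhibitors were read from 8 lists with 83 measured genes. Of 16 other Mmp genes, Mmp25 fell in Ovol1/2 DKO and 15 did not pass. Mmp25, a membrane-anchored enzyme, read 5.76 and 6.09 in Ovol1/2 DKO, 7.88 and 8.16 in the labelled Ovol1 KO arrays, and 7.76 and 7.96 in control. The Ovol1/2 DKO values were near background, and the log2 difference from control was -1.93 (SE 0.22, limma adjusted p = 0.0138). The call was lost without either Ovol1/2 DKO array or without control replicate 2.

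None of 8 other inhibitors passed. The smallest p belonged to Reck, a membrane-anchored inhibitor of metalloproteinases, at 8.32 ± 0.49 in Ovol1/2 DKO and 7.57 ± 0.0071 in control (SD, n = 2 each), a log2 difference of 0.75 (SE 0.28, limma adjusted p = 0.383). None of 7 other astacin and procollagen enhancer genes passed either. Bmp1, with the smallest p among them, read 11.35 and 11.58 in Ovol1/2 DKO, 9.62 and 10.57 in the labelled Ovol1 KO arrays, and 10.08 and 10.30 in control. It was 1.27 higher (SE 0.33, limma adjusted p = 0.159), with both Ovol1/2 DKO arrays above the other 4, and passed in 4 of 16 alternative settings. Tll2, also on this list, averaged 5.92 in Ovol1/2 DKO and 5.84 in control, a log2 difference of 0.08 near background.

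**Figure D4:**
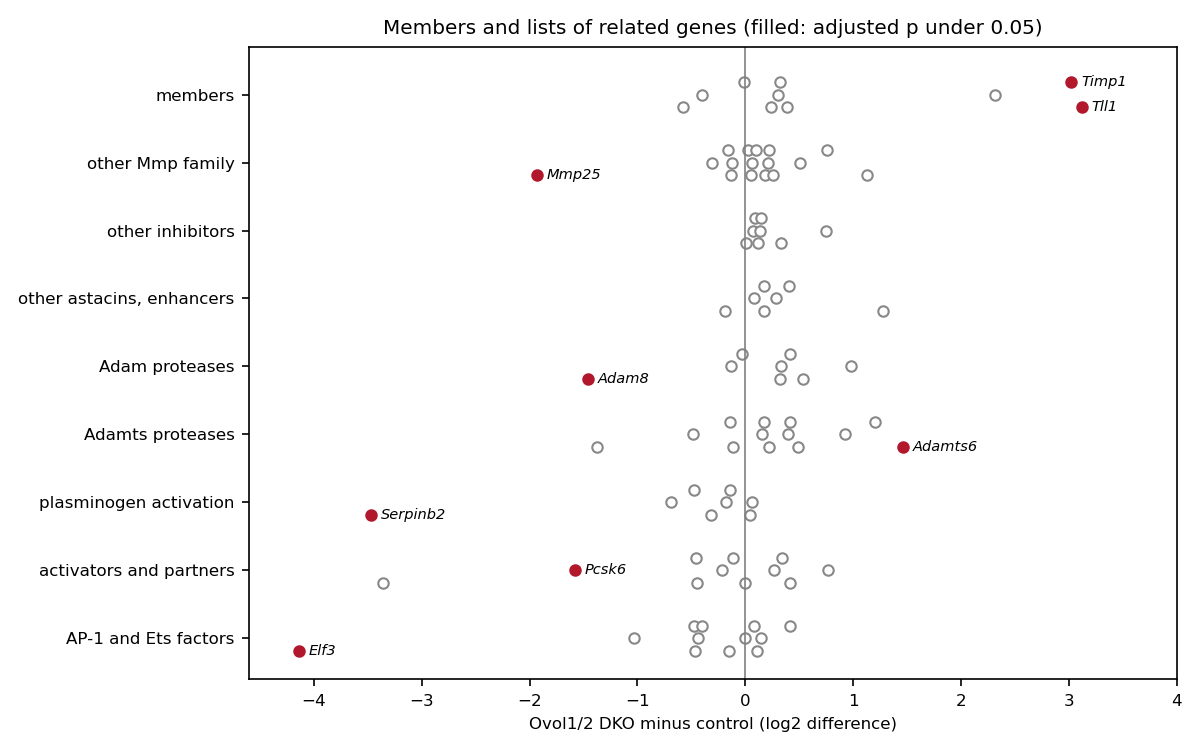
Log2 difference of Ovol1/2 DKO from control for the 10 members and for the genes of 8 lists of related proteases, inhibitors and regulators, 1 point a gene; filled points, with names, had a limma adjusted p under 0.05. Timp1 and Tll1 lie near 3 on the right, and Serpinb2 at -3.47 and Elf3 at -4.14 lie farthest to the left.

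Of 8 Adam proteases, which shed membrane proteins, Adam8 fell and 7 did not pass. Adam8 read 10.77 and 10.76 in Ovol1/2 DKO, 12.21 and 12.26 in the labelled Ovol1 KO arrays, and 12.17 and 12.27 in control, a log2 difference from control of -1.46 (SE 0.19, limma adjusted p = 0.0181). Of 13 Adamts proteases, Adamts6 rose and 12 did not pass. It read 6.66 and 6.97 in Ovol1/2 DKO, 5.30 and 4.78 in the labelled Ovol1 KO arrays, and 5.40 and 5.29 in control, and the difference of 1.47 from control (SE 0.25, limma adjusted p = 0.0405) is against groups near background. Adamts10 rose against the labelled Ovol1 KO arrays (1.19, SE 0.23, limma adjusted p = 0.0458) and was at 0.92 against control (limma adjusted p = 0.137). Adam8 lost the call against control without either Ovol1/2 DKO array or control replicate 2, and Adamts6 when any of these 4 arrays was left out. Adamts10 lost its call when any array of the groups compared was left out.

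Of 8 genes of plasminogen activation, a serine protease cascade that can activate metalloproteinase precursors, Serpinb2 fell and 7 did not pass. Serpinb2, an inhibitor of the urokinase activator, averaged 9.45 ± 0.71 in Ovol1/2 DKO and 12.91 ± 0.11 in control (SD, n = 2 each), a log2 difference of -3.47 (SE 0.36, limma adjusted p = 0.00948). The activator Plau itself read 10.79 and 10.93 in Ovol1/2 DKO, 10.83 and 11.70 in the labelled Ovol1 KO arrays, and 11.29 and 11.39 in control, and did not pass. Of 11 activators and partners, the precursor-cleaving protease Pcsk6 fell against control by 1.58 on the log2 scale (SE 0.24, limma adjusted p = 0.0292), and lost the call when any array of those groups was left out. Lcn2, a small secreted protein that binds Mmp9, fell against the labelled Ovol1 KO arrays (-4.26, SE 0.63, limma adjusted p = 0.0204), though not without replicate 1 of either of these groups, and was at -3.36 against control (limma adjusted p = 0.0564, and 0.0495 with the replicate block). Of 12 AP-1 and Ets factors, the epithelial Ets factor Elf3 fell by 4.14 on the log2 scale (SE 0.38, limma adjusted p = 0.00755), and the 7 Fos and Jun genes did not pass.

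Of the 83 genes on these lists, none passed limma for labelled Ovol1 KO against control, where the adjusted p was at least 0.999. The smallest p of each list belonged to Mmp12 (log2 difference -0.75), the protease inhibitor A2m (0.37), the procollagen enhancer Pcolce2 (-0.50), Adam15 (0.22), Adamts1 (-0.66), Serpinb2 (-0.38), the integrin chain Itgav (-0.40) and Ets1 (-0.51). Against the labelled Ovol1 KO arrays, Ovol1/2 DKO arrays were lower by the test in Mmp25 (-2.09), Adam8 (-1.47), Serpinb2 (-3.08), Pcsk6 (-1.88), Lcn2 and Elf3 (-4.49), and higher in Adamts6 (1.77) and Adamts10. Adam8 and Pcsk6 lost this call without either Ovol1/2 DKO array or without replicate 1 labelled Ovol1 KO. Adamts6 lost it without either Ovol1/2 DKO array, with an offset of 64 and over all probe sets. Mmp25 lost it without Ovol1/2 DKO replicate 1, and Serpinb2 without replicate 1 labelled Ovol1 KO. Reck (0.72, limma adjusted p = 0.308) did not pass there, and Bmp1 (1.37, limma adjusted p = 0.0980) passed with the replicate block (SE 0.24, limma adjusted p = 0.0365).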

How the data were processed

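Probe set intensity values on a linear scale were deposited by the authors. Per the submitters' processing notes, Expression Console 1.1.1 and PLIER 2.0, a probe summary method, were used; how background and scale were set is not given in the sources used here. Of 35556 probe sets, 21789 had 1 gene symbol in the platform annotation, and for genes with several the one with the highest mean was used. Each member had 1. Array medians ran from 103.3 to 109.8, and the number of arrays limits the precision. Values were fitted as log2(intensity + 16) with limma 3.58.1 in R 4.3.3 (lmFit, eBayes, 3 residual and 3.68 prior degrees of freedom), with Benjamini-Hochberg adjustment over all named genes of a comparison. Replicate 1 arrays deviated from their group means together, with a correlation of 0.49 for Ovol1/2 DKO with control, 0.26 for labelled Ovol1 KO with control and 0.19 for Ovol1/2 DKO with labelled Ovol1 KO. On that basis blocked values are given where they change a call; the pairing comes from the data and not from the labels. Of 158 symbols on the lists 153 were measured. Named were all members and, per list and comparison, up to 4 passing genes or the one with the smallest p. Added after their values were seen were the cell type markers, Jun, Junb, Jund, Fos, Fosl1, Plau and Tll2. The same holds for Mmp1a, Mmp1b, Mmp7, Mmp8, Mmp20, Mmp27 and, outside the second comparison, Mmp12. Members and lists were chosen with earlier results of these data known. Alternatives were a replicate block, each array left out, only the groups compared, quantile normalization, offsets of 1 and 64, dim genes left out, all probe sets, an intensity trend and the mean of a gene's probe sets. Leaving out both arrays without Xist signal was added after seeing the data.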

Additional observations from a re-analysis of the deposited data

How the results depend on the processing

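With 2 arrays a group, single arrays moved most counts. With each array left out in turn, the members passing ran from 0 to 2 for Ovol1/2 DKO against control and from 1 to 2 against labelled Ovol1 KO, and all named genes passing from 99 to 455, from 135 to 831 and, for labelled Ovol1 KO against control, from 0 to 3. With an offset of 64, 1 member, Tll1, and 155 genes passed for Ovol1/2 DKO against control, and 311 genes against labelled Ovol1 KO. Over all probe sets, where p-values are adjusted over more tests, these were 0 members, 91 and 206 probe sets. Between Ovol1/2 DKO and labelled Ovol1 KO the replicate block gave 1022 genes, and it changed no other member's call than that of Mmp2. Without both arrays that lack Xist signal, 1395, 1508 and 20 genes passed for Ovol1/2 DKO against control, for Ovol1/2 DKO against the labelled Ovol1 KO arrays, and for labelled Ovol1 KO against control. In that setting, which leaves 1 residual degree of freedom and lone arrays assumed to vary like the Ovol1/2 DKO arrays, Mmp9 was lower in Ovol1/2 DKO than in labelled Ovol1 KO (-1.75, adjusted p = 0.0478), and signs turned, none passing, for Mmp3 (-0.73), Mmp9 (-0.47) and Mmp13 (-0.59) against control, for Mmp3 (-0.69), Mmp13 (-0.16) and Mmp14 (-0.055) against labelled Ovol1 KO, and for Mmp3 (-0.039), Mmp14 (0.29) and Timp2 (-0.32) in labelled Ovol1 KO against control.

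Of 30 member differences, 11 kept their sign in all 16 settings, those of Timp1 and Tll1 in all 3 comparisons among them. With 1 array left out, for Ovol1/2 DKO against control, Mmp3 ran from -0.73 to 1.37, Mmp9 from -0.47 to 1.25, Mmp10 from -1.30 to 0.15, Mmp13 from -0.63 to 1.24, Mmp14 from -0.10 to 0.58, Timp2 from -0.94 to 0.91 and Timp3 from -0.81 to 0.0045. For labelled Ovol1 KO against control, Mmp2 ran from -0.36 to 0.65, Mmp3 from -1.01 to 1.08, Mmp9 from -1.87 to 2.14, Mmp10 from -1.29 to 0.16, Mmp13 from -1.26 to 0.53, Mmp14 from -0.42 to 0.30 and Timp2 from -0.21 to 1.64. For Ovol1/2 DKO against labelled Ovol1 KO, Mmp3 ran from -0.69 to 1.26, Mmp9 from -1.75 to 2.26, Mmp10 from -0.72 to 0.71, Mmp13 from -0.26 to 1.61 and Mmp14 from -0.055 to 0.67. None of these passed, and the cause was not tested.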
